A study of Homo sapiens with 12 samples.

Results

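RNA sequencing of vehicle-treated PC3 and DU145 cells was used to describe how the 2 androgen-independent prostate cancer lines differ at baseline, and which genes were expressed in only one of them. The 6 vehicle samples of the series were compared, 3 labelled PC3 and 3 labelled DU145, out of 12 samples in all. The other 6 samples were 3 per line with 2.5 µM pentamidine, an antiprotozoal diamidine. They let the same line difference be read again, and entered fits of all 12 samples, such as the test of line by treatment. Cells of both lines were plated at 1000000 per well and cultured for 48 h, and the labels gave the genotype of every sample as wild type. All genes of the count table took part: 32077 genes were listed, and 14394 of them had enough reads to be tested. Total counts of the vehicle samples were 14610424, 15131436 and 13514195 for PC3 and 13798818, 14670705 and 14906017 for DU145. At these depths 3 reads correspond to 0.198 to 0.222 CPM, the reads of a gene in each 1000000 reads of a sample.

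PC3 was established from a bone metastasis and DU145 from a brain metastasis of prostate cancer, and both grow without androgen. Luminal cells of the prostate make simple keratins and androgen-driven secretory proteins, basal cells make other keratins and hemidesmosome components, and rare neuroendocrine cells make granins and synaptic proteins. Lines that have lost epithelial junctions often express mesenchymal matrix and receptor genes in their place. PC3 is known for a homozygous deletion of CTNNA1, which encodes the adhesion protein alpha-catenin. DU145 is known as positive for E-cadherin, encoded by CDH1, and for the epithelial surface protein EpCAM.

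The labels were first set against these genes, and several of them did not match. CTNNA1 had 6357, 6714 and 6003 reads in the samples labelled PC3 and 5711, 5756 and 5906 in those labelled DU145. The gene was therefore read at high counts in all 6 vehicle samples, including the 3 whose label is of a line known to lack it. CDH1 had 4, 1 and 5 reads in the samples labelled DU145 and 0, 0 and 1 in those labelled PC3. EPCAM had 2, 0 and 0 reads under the DU145 label and 1, 0 and 0 under the PC3 label, so neither marker of DU145 was above the background of a few reads in any of the 6 samples. According to the study's methods, the lines came from ATCC and were authenticated by short tandem repeat profiling. The groups are therefore called PC3-labelled and DU145-labelled here, and every direction given is between samples with these labels.

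The 2 groups were far apart. KRT8, a keratin of simple epithelia, and DSP, the desmosomal plaque protein desmoplakin, were high in the DU145-labelled samples and near 0 or low in the PC3-labelled ones. The receptor tyrosine kinase AXL, the matrix protease ADAMTS1 and fibronectin (FN1) were high in the PC3-labelled samples. The cancer-testis antigen MAGEA3 was read 1904 to 2038 times in each PC3-labelled vehicle sample and never in the DU145-labelled ones. The neuronal ubiquitin hydrolase UCHL1 had 1317 to 1472 reads in each DU145-labelled sample and 3, 0 and 0 in the PC3-labelled ones.

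A gene was called when its absolute log2 fold change was above 1 and its adjusted p below 0.05 by edgeR's quasi-likelihood test, adjusted after Benjamini and Hochberg (Benjamini-Hochberg) over all tested genes. Of 14394 genes tested, 2768 were called (19.2%), of which 1083 were higher in PC3-labelled samples (7.52% of tested genes) and 1685 higher in DU145-labelled samples (11.7%). The median log2 fold change of all tested genes, PC3-labelled over DU145-labelled, was -0.01. With the adjusted p alone, 9405 genes passed. The lines did not overlap in CPM from library totals for 2736 of the 2768 called genes, against 10018 of all tested genes (69.6%). An absolute log2 fold change above 5 was reached by 121 genes on the PC3-labelled side and 337 on the DU145-labelled side. The labels do not say whether the 3 samples of a group were separate cultures, so the p-values measure only the spread between these samples, which may be technical. Each line was present as 1 source, and line and any culture or handling batch cannot be told apart.

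**Figure D1:**
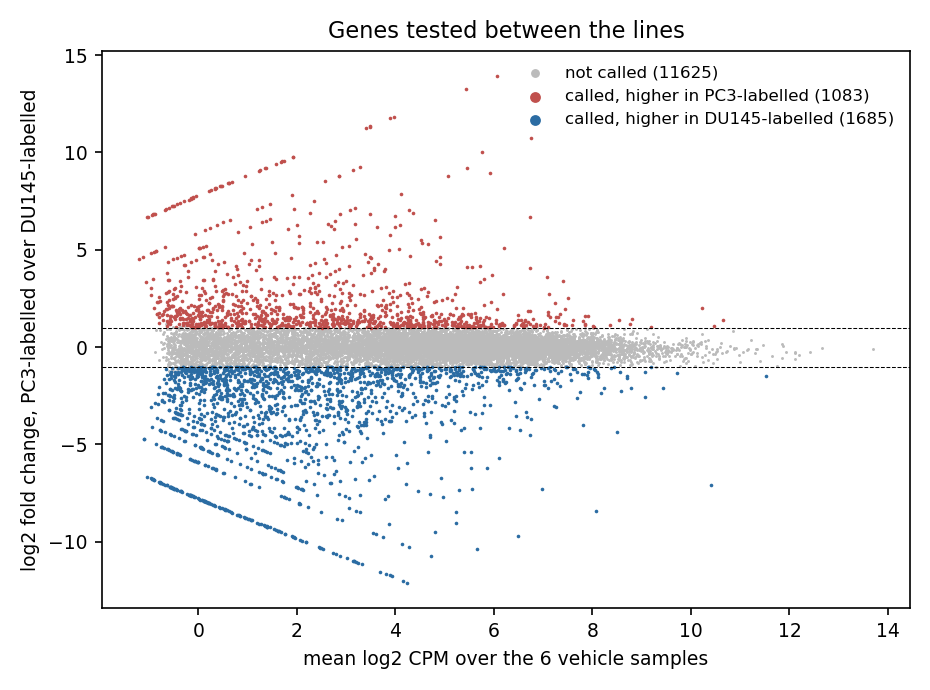
Each point is 1 of the 14394 tested genes, with its mean log2 CPM over the 6 vehicle samples on the x axis and its log2 fold change, PC3-labelled over DU145-labelled, on the y axis. The 1083 genes called higher in PC3-labelled samples are red, the 1685 called higher in DU145-labelled samples are blue, and the dashed lines mark a log2 fold change of 1 in either direction; the slanted lines of points are genes at or near 0 in one line, whose fitted fold is not a measured size.

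Markers of prostate cell types were next read in the 6 samples, since they bear on what kind of cell each line is. HOXB13, the homeobox gene of the posterior prostate, had 13, 10 and 12 reads in PC3-labelled and 0 in all 3 DU145-labelled samples, which makes it at least 3.64-fold higher. FOXA1, a pioneer factor of luminal cells, had 4.83, 3.97 and 5.09 CPM against 0.597, 1.26 and 0.276 CPM. It was called higher in PC3-labelled samples (log2 fold change 2.68, SE 0.33), which lay above all DU145-labelled ones. KLK3, which encodes prostate-specific antigen, had at most 2 reads in any vehicle sample. The androgen receptor gene and TMPRSS2 were not analysed here.

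KRT5 and TP63, which mark basal cells, and CHGA, which marks neuroendocrine cells, had few reads. The basal keratin gene KRT5 had at most 1 read per sample, and TP63, the master regulator of basal cells, had 7, 5 and 1 reads under the PC3 label and 2, 0 and 0 under the DU145 label. Chromogranin A (CHGA) had at most 6 reads in any sample. Among the 5 listed neuroendocrine markers, which did not include UCHL1, the most abundant was SYP, which encodes the synaptic vesicle protein synaptophysin. SYP had 13.8, 14.1 and 15.8 CPM against 30.2, 28.4 and 27.7 CPM. It stood just short of the fold limit (log2 fold change -0.98, SE 0.089), and crossed it when 1 sample was left out, with -1.01 without DU145-labelled replicate 3 and -1.03 without PC3-labelled replicate 3. Vimentin (VIM), the intermediate filament of mesenchymal cells, was high in every sample, with 314, 363 and 363 CPM against 312, 325 and 318 CPM, and was not called (log2 fold change 0.12, SE 0.055).

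The tumour suppressor genes recorded as altered in one or the other line were expressed in both groups. RB1 had 92.8, 88.7 and 84.0 CPM under the PC3 label and 74.7, 83.6 and 79.8 CPM under the DU145 label. CDKN2A (log2 fold change -0.30, SE 0.052) and STK11 (0.43, SE 0.063) had small differences below the fold limit. The groups did not overlap for RB1, CDKN2A or STK11, but none of the 3 genes was called. RNA level says nothing of mutations in these genes, which were not analysed here.

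**Figure D2:**
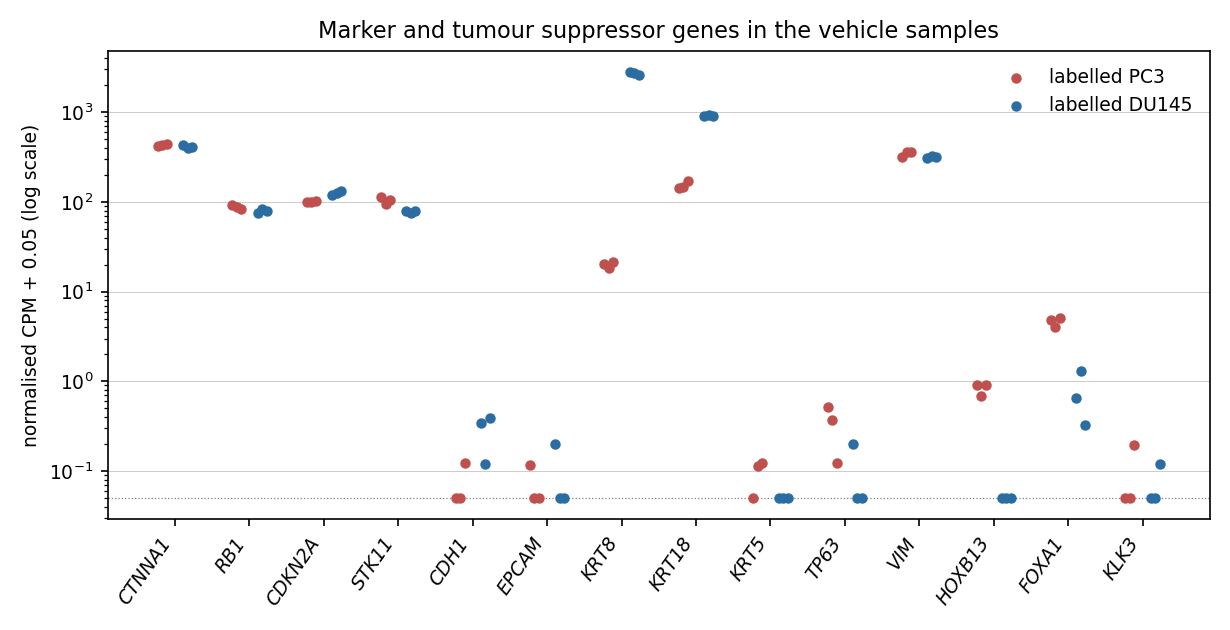
Each point is 1 vehicle sample, with normalised CPM plus 0.05 on a log scale; red points are labelled PC3, blue points DU145, and the dotted line marks 0 reads. CTNNA1 is well above 0 in all 6 samples, CDH1 and EPCAM are near 0 in all 6, and KRT8 is the gene shown with the widest gap.

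Genes that mark other cell types had low summed levels. Of 5 listed leukocyte markers the summed level was 0.661, 0.705 and 0.509 CPM in PC3-labelled and 1.57, 1.40 and 1.65 CPM in DU145-labelled samples, with ITGAM the most abundant. The 3 listed endothelial markers summed to 1.12, 0.641 and 0.436 CPM against 0.746, 0.630 and 0.345 CPM, with CDH5 the most abundant, and the 5 stromal markers to 1.12, 2.18 and 1.89 CPM against 3.06, 2.87 and 2.69 CPM, with COL1A1 the most abundant. Both adipocyte markers together stayed at or below 0.397 CPM, and ADIPOQ had no reads in any vehicle sample. Only 2 of the 15 listed markers of other cell types could be tested, ITGAM and COL1A1, and both were higher in DU145-labelled samples. ITGAM had 2, 1 and 2 reads against 19, 18 and 18, and COL1A1 had 3, 12 and 6 reads against 40, 39 and 36, so the groups did not overlap for either gene. Their part in the other results was not tested.

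Lists of genes by function were described by the number of tested members called in each direction and by their median log2 fold change, to be read against 19.2% of genes called and a median of -0.01 over all genes tested. Of 581 list genes in 21 lists, 39 were not analysed here. Some genes are named below whatever their values. The other members named for a list were its called members with the largest fold changes and no overlap between the groups. They are therefore the extremes of a list, and their lack of overlap follows from how they were chosen. The medians below were the same when genes with 0 reads in a line were set to their bound, except for the cancer-testis antigens. Where values of the groups are set against each other, those of the PC3-labelled samples come first, unless the sentence names the DU145-labelled samples first.

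**Figure D3:**
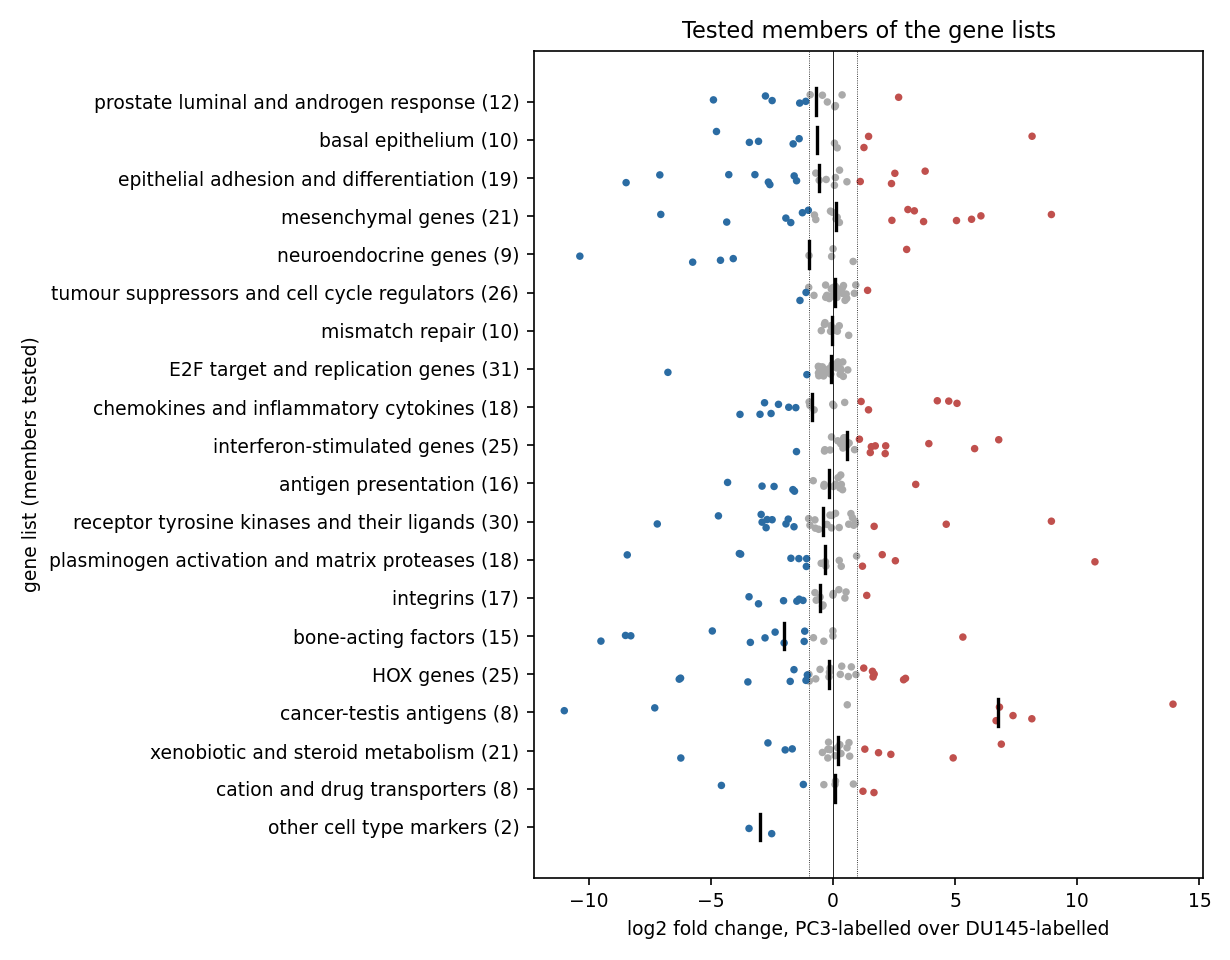
Each point is 1 tested member of a gene list described here, with its log2 fold change, PC3-labelled over DU145-labelled, on the x axis; red and blue points were called, grey points were not, black bars are list medians and the number of tested members is in brackets. Mismatch repair genes and most E2F target genes lie close to 0, with CCND2 far to the left at -6.76. Most called bone-acting factors lie to the left, higher in DU145-labelled samples. Many of the points farthest from 0 are genes with few or no reads in one line.

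Of 19 tested genes of epithelial adhesion and differentiation, 8 were higher in the DU145-labelled samples, 4 were higher in the PC3-labelled samples and 7 were not called, with a median of -0.57. KRT8 had 20.3, 18.3 and 21.1 CPM in PC3-labelled samples and 2794, 2719 and 2620 CPM in DU145-labelled ones, a 136-fold difference. Its partner in simple epithelial filaments, KRT18, had 141, 148 and 169 CPM against 894, 940 and 910 CPM (log2 fold change -2.59, SE 0.060). The PC3-labelled samples lay below all DU145-labelled ones for both keratins. Desmoplakin (DSP), which ties desmosomes to keratin filaments, had 2, 5 and 2 reads against 1043, 1021 and 1091, a ratio of 350 with a 95% counting interval of 184 to 765. By edgeR's quasi-likelihood test (Benjamini-Hochberg), the adjusted p was 3.2e-20 for KRT8, 2.0e-15 for KRT18 and 1.3e-16 for DSP. The members higher in PC3-labelled samples included AP1M2, an adaptor subunit for basolateral sorting in epithelia, with 47.4, 61.7 and 60.4 CPM against 9.62, 10.6 and 9.03 CPM. The desmosomal plakophilin PKP3 had 50, 35 and 35 reads against 3, 1 and 4, a ratio of 15 (95% counting interval 7.39 to 35.6). Neither gene overlapped between the groups.

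Mesenchymal genes were split between the lines: 8 of 21 tested were higher in PC3-labelled samples, 6 were higher in DU145-labelled samples, and the median was 0.12. AXL, a receptor tyrosine kinase for GAS6, had 116, 120 and 127 CPM under the PC3 label and 0.149, 0.280 and 0.276 CPM under the DU145 label, a 513-fold difference. FN1, the matrix protein fibronectin, had 125, 108 and 116 CPM against 9.40, 9.88 and 7.45 CPM, a 13-fold difference. The PC3-labelled samples were above all DU145-labelled ones for both genes. The chains of collagen VI went opposite ways. COL6A3 had 90, 99 and 115 reads in PC3-labelled samples against 0, 2 and 2, a ratio of 76.2 (95% counting interval 29.5 to 282). COL6A1 had 0.529, 0.769 and 0.80 CPM against 14.1, 13.9 and 15.2 CPM, and COL6A2 had 0.529, 0.0641 and 0.218 CPM against 36.3, 36.8 and 37.6 CPM. Each line thus had high reads of a chain that was nearly absent from the other, and no sample of either group lay within the range of the other for any of the 3 genes. By edgeR's quasi-likelihood test (Benjamini-Hochberg), the adjusted p was 1.7e-17 for AXL, 4.3e-15 for FN1, 1.0e-09 for COL6A3 and 5.0e-14 for COL6A2.

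The basal list had 3 members higher in PC3-labelled and 5 higher in DU145-labelled samples of 10 tested (median -0.66). The calcium-binding protein gene S100A2 was higher in PC3-labelled samples, with 20.1, 25.4 and 26.9 CPM against 7.31, 10.2 and 8.82 CPM. COL17A1, the hemidesmosomal collagen, was higher in the DU145-labelled samples, with 35, 36 and 55 reads against 2, 6 and 4, as was the laminin receptor BCAM, with 53, 43 and 43 reads against 2, 0 and 3 and a ratio of 27.7 (95% counting interval 11.6 to 86.7). No group overlapped the other for these 3 genes.

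In the luminal and androgen response list, 1 of 12 tested genes was higher in PC3-labelled samples, FOXA1 as above, and 5 were higher in DU145-labelled samples (median -0.69). GATA2, a transcription factor that acts with the androgen receptor, had 0.727, 0.320 and 0.436 CPM against 13.4, 14.6 and 17.0 CPM, a 30.2-fold difference. NDRG1, a stress- and androgen-responsive gene, had 2.38, 1.54 and 1.6 CPM against 12.2, 15.7 and 9.93 CPM. All DU145-labelled samples lay above the PC3-labelled ones for both. Of 9 tested neuroendocrine genes, 1 was higher in PC3-labelled and 4 in DU145-labelled samples, with a median of -0.98. The neural adhesion molecule NCAM1 was the 1 member on the PC3-labelled side, with 20, 22 and 12 reads against 1, 5 and 0. SOX2, a factor of neural and stem cells, had 1, 0 and 0 reads in PC3-labelled and 25, 27 and 18 in DU145-labelled samples, a ratio of 69.8 with a wide 95% counting interval of 12.1 to 2796.

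Of 26 tested tumour suppressors and cell cycle regulators, CDKN2B was higher in PC3-labelled samples and 2, among them SMAD3, were higher in DU145-labelled ones (median 0.07). CDKN2B, an inhibitor of CDK4 and CDK6, had 11.9, 10.7 and 10.8 CPM against 4.48, 3.57 and 4.48 CPM, and SMAD3, a transducer of TGF-beta signals, had 132, 125 and 122 CPM against 273, 267 and 275 CPM. None of 10 mismatch repair genes was called with edgeR or with DESeq2, although by edgeR's quasi-likelihood test 7 had an unadjusted and 6 an adjusted p below 0.05 (Benjamini-Hochberg), so these 6 missed only the fold limit. Their median was -0.04, and 0.04 with library size alone. Of 31 E2F target and replication genes 2 were called, both higher in DU145-labelled samples (median -0.09). CCND2, which encodes cyclin D2, had 4, 3 and 0 reads against 248, 245 and 265, a ratio of 108 (95% counting interval 52.2 to 270). The phosphatase gene CDC25A had 37.6, 35 and 37.7 CPM against 79.0, 78.6 and 74.0 CPM (log2 fold change -1.07, SE 0.062) and was no longer called with library size alone (-0.99).

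Cytokine genes showed a different repertoire in each group: 5 of 18 tested were higher in PC3-labelled and 7 in DU145-labelled samples, with a median of -0.86. CXCL8, which encodes the neutrophil attractant interleukin 8, had 124, 137 and 128 CPM against 56.4, 58.3 and 60.5 CPM (log2 fold change 1.15, SE 0.057). IL15 had 31, 33 and 20 reads against 1, 1 and 0, and IL1B had 19, 23 and 24 reads against 1, 1 and 0, which gave ratios of 42.1 (95% counting interval 11.3 to 353) and 33.1 (8.81 to 279). On the DU145-labelled side, IL6 had 11.4, 13.8 and 12.6 CPM against 44.2, 41.6 and 47.3 CPM. The macrophage growth factor gene CSF1 had 0.595, 0.961 and 0.582 CPM against 9.47, 10.1 and 11 CPM, and the monocyte attractant CCL2 had 4, 10 and 3 reads against 49, 35 and 46. None of these 6 genes overlapped between the groups.

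Of 25 tested interferon-stimulated genes, 9 were higher in PC3-labelled samples and 1 in DU145-labelled samples, with a median of 0.55. The DNA sensor IFI16 had 19, 11 and 12 reads in PC3-labelled samples and 0 in all DU145-labelled ones, at least 4.34-fold higher. SAMD9, an antiviral factor, had 27, 36 and 17 reads against 1, 0 and 0 (ratio 80.2, 95% counting interval 14 to 3208). The exception was the exonuclease gene ISG20, with 9, 5 and 10 reads against 22, 26 and 17. Of 16 antigen presentation genes, 1 was higher in PC3-labelled and 5 in DU145-labelled samples (median -0.18). HLA-B, a class I heavy chain, had 0.397, 1.41 and 0.945 CPM against 17.5, 21.5 and 16.5 CPM, a 20.2-fold difference, but HLA genes are polymorphic and alike, and how reads were assigned among them was not tested. The immunoproteasome subunit genes PSMB8 and PSMB9, neighbours in the HLA region, went opposite ways, with PSMB8 at 3.50, 2.88 and 4.29 CPM against 0.0746, 0.350 and 0.552 CPM and PSMB9 at 0.926, 2.37 and 1.75 CPM against 11.3, 13.8 and 13 CPM. The lines did not overlap for either subunit.

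Of 30 tested receptor tyrosine kinases and ligands, 3 were higher in PC3-labelled and 10 in DU145-labelled samples (median -0.42). EGFR, the receptor of epidermal growth factor, had 428, 435 and 391 CPM against 845, 823 and 841 CPM. Its log2 fold change of -1.0 (SE 0.048) lay at the fold limit, so that it was not called here. It was called with -1.01, -1.02 and -1.01 when PC3-labelled replicate 1, PC3-labelled replicate 2 or DU145-labelled replicate 2 was left out. It was also called with -1.01 when at least 10 reads were required in every sample, and with -1.0, past the limit before rounding, when the replicate number was a block. The ligand gene FGF5 had 56.9, 58.3 and 56.8 CPM against 2.61, 2.45 and 1.86 CPM, a 24.8-fold difference. FGFR2, a receptor of such ligands, had 1, 0 and 0 reads against 62, 63 and 67 (ratio 191, 95% counting interval 34.0 to 7602), and IGF2 had 1, 1 and 0 reads against 22, 15 and 21 (ratio 28.9, interval 7.65 to 244). The groups did not overlap for any of these 4 genes.

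Protease genes went in both directions. Of 18 tested genes of plasminogen activation and matrix proteolysis, 4 were higher in PC3-labelled and 7 in DU145-labelled samples (median -0.32). ADAMTS1, a secreted protease that cuts proteoglycans, had 3319, 3366 and 2879 reads in PC3-labelled samples and 0, 1 and 4 in DU145-labelled ones, a ratio of 1918 (95% counting interval 822 to 5909). MMP1, the interstitial collagenase, had 1.45, 1.22 and 2.04 CPM against 526, 531 and 551 CPM, a 342-fold difference. ADAMTS1 had at most 4 reads in any DU145-labelled sample, while MMP1 was read above 1 CPM in every PC3-labelled sample too. The plasminogen activators also went opposite ways: PLAT had 14.8, 13.9 and 14 CPM against 2.61, 2.38 and 2.28 CPM, and PLAU, the urokinase gene, had 47.7, 46.7 and 53.9 CPM against 131, 133 and 127 CPM. The inhibitor gene TIMP2 had 1.39, 1.41 and 1.24 CPM against 19.5, 19.5 and 19.1 CPM, a 14.4-fold difference. By edgeR's quasi-likelihood test (Benjamini-Hochberg), the adjusted p was 1.0e-17 for ADAMTS1, 3.4e-19 for MMP1, 6.5e-12 for PLAU and 1.3e-12 for TIMP2.

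Of 17 integrin genes, ITGA3 alone was higher in PC3-labelled samples and 6 were higher in DU145-labelled ones (median -0.53). ITGA3, a laminin receptor subunit, had 565, 508 and 540 CPM against 213, 207 and 199 CPM, and ITGB4, the hemidesmosomal subunit, had 0.397, 0.512 and 0.582 CPM against 5.30, 4.34 and 2.90 CPM. The groups did not overlap for either subunit. Bone-acting factors had the lowest median among lists with more than 2 tested members, -2.0, with 10 of 15 tested higher in DU145-labelled samples and 1, JAG1, higher in PC3-labelled ones. The bone morphogenetic protein gene BMP7 had 93, 74 and 97 reads in DU145-labelled samples and 0 in all PC3-labelled ones, at least 28.2-fold higher, and BMP5 had 261, 274 and 281 reads against 2, 0 and 0 (ratio 407, 95% counting interval 112 to 3365). The Notch ligand gene JAG1 had 49.3, 47.1 and 51.9 CPM in PC3-labelled samples against 1.42, 1.33 and 0.965 CPM, a 39.9-fold difference.

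HOX genes, which record position along the body axis, differed in both directions: 6 of 25 tested were higher in PC3-labelled and 7 in DU145-labelled samples (median -0.15). HOXB5 had 6.41, 6.28 and 5.89 CPM against 1.04, 0.490 and 0.965 CPM, and its neighbour HOXB6 had 11.9, 11.1 and 15.6 CPM against 1.57, 1.61 and 1.72 CPM. HOXA11 had 0, 1 and 0 reads against 25, 40 and 38 (ratio 103, 95% counting interval 18.0 to 4096), and HOXC13 had 1, 1 and 0 against 48, 63 and 60 (ratio 85.3, interval 23.2 to 710). The 4 genes did not overlap between the groups.

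Retinaldehyde dehydrogenases were exchanged between the groups. ALDH1A1 had 34.1, 44 and 43 CPM in PC3-labelled samples against 0.298, 0.560 and 0.138 CPM, a 122-fold difference, and ALDH1A3 had 1.32, 0.769 and 1.6 CPM against 91.2, 91.9 and 92.5 CPM, a 74.7-fold difference the other way. ALDH1A1 was thus high and ALDH1A3 low in all PC3-labelled samples, with the reverse in all DU145-labelled ones. Within the list of xenobiotic and steroid metabolism, 5 of 21 tested genes were higher in PC3-labelled and 4 in DU145-labelled samples (median 0.19), among them CYP24A1, which inactivates vitamin D, with 15, 11 and 17 reads against 0, 1 and 0 (ratio 43.1, 95% counting interval 7.34 to 1742), and CYP1B1 with 5, 12 and 4 reads against 39, 41 and 48. Of 8 cation and drug transporters, 2 were higher in each direction (median 0.09): SLC7A11, the cystine importer, had 73.1, 75.1 and 62.1 CPM against 23.9, 22.2 and 19.9 CPM, and SLC22A4 had 3.57, 4.23 and 3.34 CPM against 1.49, 1.82 and 1.45 CPM. SLC29A3, a nucleoside transporter of lysosomes, had 2, 1 and 2 reads against 39, 38 and 44.

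The genes expressed in only one line were then listed by a rule on counts: at least 1 CPM in each of the 3 vehicle samples of a line and at most 3 reads in each of the 3 samples of the other. The rule used the vehicle counts, so the genes it chose are given as a description, although those tested with all other genes count among the called genes above where they passed. It was met by 109 genes in the PC3-labelled samples, 0.882% of the 12361 genes expressed there, and by 313 in the DU145-labelled samples, 2.45% of 12780. Of the 109, 82 were protein-coding and 42 had 0 reads in all 3 silent samples. Of the 313, 274 were protein-coding and 117 had 0 reads in all 3 silent samples. Levels were low for most: the median of the mean level was 2.96 CPM for the 109 and 2.88 CPM for the 313, and 20 and 47 genes were above 10 CPM. A gene with at most 3 reads was not detectable above 0.222 CPM at this depth, and gene loss and silencing cannot be told apart. Intervals and floors cover counting error only.

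On the PC3-labelled side, MAGEA3, a cancer-testis antigen normally made in the male germ line, led with 2038, 2007 and 1904 reads in PC3-labelled samples and 0 in each DU145-labelled one, at least 616-fold higher. EVA1A, a gene of autophagy and apoptosis, had 1577, 1755 and 1504 reads against 3, 1 and 0, a ratio of 1212 (95% counting interval 473 to 4451). TINAGL1, a secreted matrix protein gene, had 1499, 1220 and 1106 reads against 0 in all 3, at least 395-fold higher. These 3 genes had at least 1106 reads in every PC3-labelled sample and at most 3 in any sample of the other line. DOCK10, a guanine nucleotide exchange factor gene, had 988, 1055 and 914 reads against 2, 3 and 1 (ratio 494, interval 227 to 1348), and CSMD3, a large membrane protein gene, had 589, 531 and 422 against 2, 2 and 2 (ratio 258, interval 118 to 703). GTSF1, a germ line gene of the piRNA pathway, had 414, 530 and 452 reads against 0, at least 144-fold higher. The long noncoding RNA LINC01551 had 328, 345 and 320 reads against 0 in all DU145-labelled samples, at least 103-fold higher. CSAG3, a further cancer-testis gene, had 325, 346 and 316 reads against 0 (at least 102-fold), and MRVI1, a target of cGMP-dependent kinase in smooth muscle, had 263, 365 and 307 against 0 (at least 96.7-fold). None of these genes exceeded 3 reads in a DU145-labelled vehicle sample, as the rule requires.

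On the DU145-labelled side, UCHL1, a ubiquitin hydrolase abundant in neurons and neuroendocrine cells, led with 1317, 1444 and 1472 reads in DU145-labelled samples against 3, 0 and 0, a ratio of 1407 (95% counting interval 481 to 6826). MYEF2, a repressor of the myelin basic protein gene, had 498, 534 and 601 reads against 0, 0 and 1 (ratio 1629, interval 292 to 64361). For both genes, all reads of the PC3-labelled group came from 1 of its samples. FOXE1, a forkhead factor of the thyroid, had 508, 553 and 536 reads against 0 in all 3, at least 171-fold higher, and DSC3, a desmosomal cadherin gene, had 480, 481 and 542 against 0, at least 160-fold higher. VNN1, a pantetheinase gene, had 465, 482 and 524 reads against 0, 0 and 1 (ratio 1467, interval 263 to 57980). CELF2, a splicing regulator, and EPDR1, a relative of ependymin, had 427, 449 and 408 and 362, 454 and 427 reads, each against 0, at least 137-fold and 132-fold higher. The serotonin receptor gene HTR1F had 392, 417 and 422 reads against 2, 0 and 0 (ratio 614, interval 170 to 5074), and AFAP1L2, an actin filament-associated adaptor gene, had 367, 419 and 419 against 2 in each (ratio 200, interval 91.7 to 547).

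**Figure D4:**
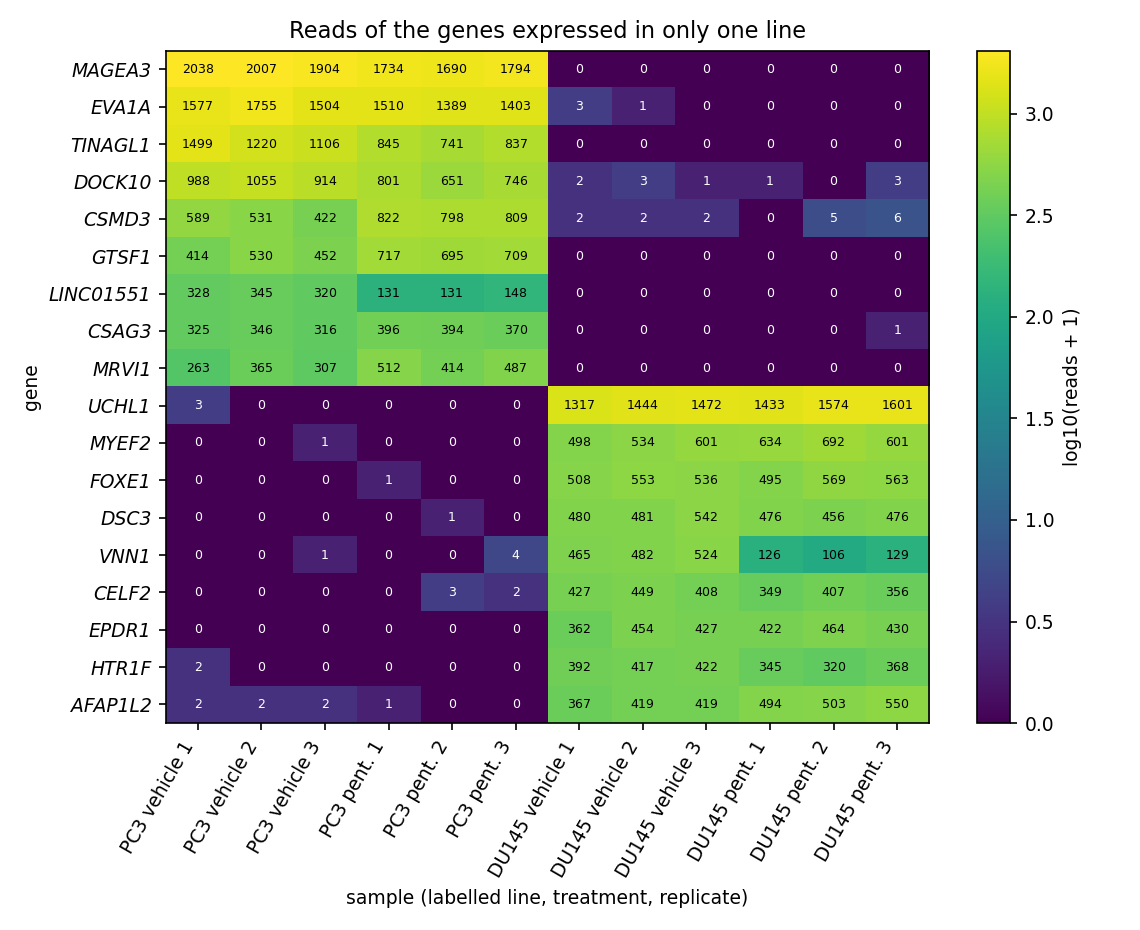
Each cell gives the reads of 1 gene in 1 of the 12 samples, coloured by log10 of reads plus 1, for genes that lead those expressed in only one line of the vehicle samples. The pentamidine samples, which did not enter the choice, have at most 6 reads in the silent line for each gene shown.

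Some of the genes expressed in only one line were neighbours. A run was 3 or more such genes that followed each other in the order of starts among the expressed genes of a chromosome, and there were 5 runs, 1 on the PC3-labelled side and 4 on the DU145-labelled side. The PC3-labelled run lay at chrX:152698752-152769747 and held MAGEA3, MAGEA12, CSAG3 and MAGEA6. MAGEA12 had 37, 35 and 36 reads against 0 in all 3, and MAGEA6 had 73, 68 and 95 against 0, 0 and 1. The 3 MAGEA genes are similar in sequence, and how shared reads were divided among them was not tested, so they may not be 3 separate measurements. A run at chr5:76403249-76735781 held IQGAP2, a scaffold protein gene, and the thrombin receptor family genes F2RL2 and F2R. In DU145-labelled against PC3-labelled samples, F2R had 95, 86 and 92 reads against 2, 0 and 0 reads, IQGAP2 had 101, 97 and 79 against 0, 1 and 0, and F2RL2 had 18, 20 and 15 against 1, 0 and 0. Each of the 3 had reads in at most 1 PC3-labelled sample.

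The run on chromosome X in the DU145-labelled samples, at chrX:132369317-133985895, held the splicing regulator MBNL3 and the glypicans GPC4 and GPC3, which are surface proteoglycans. GPC3 had 51, 41 and 56 reads in DU145-labelled samples against 0 in all 3 PC3-labelled ones, at least 15.8-fold higher. In the same order, GPC4 had 135, 103 and 128 reads against 1, 1 and 3, and MBNL3 had 55, 71 and 88 against 1, 2 and 2. The run at chr19:56439325-56588911 held the zinc finger genes ZNF667, ZFP28 and ZNF470 with the antisense transcript ZNF667-AS1. In the DU145-labelled samples ZNF667 had 39, 26 and 26 reads and ZNF470 had 47, 43 and 31, each against 0, while ZFP28 had 38, 30 and 34 against 0, 1 and 0. ZNF667-AS1 had 18, 39 and 28 reads against 0, but whether strand was used in counting is not given in the sources used here, so reads from the stretch where it and ZNF667 overlap may be of either gene. The last run, at chr15:28737583-29118315, held APBA2, a neuronal adaptor gene, with 360, 339 and 380 reads in DU145-labelled samples against 0, and the pseudogenes WHAMMP2 and PDCD6IPP2, with 45, 56 and 62 reads against 1, 1 and 0 and 77, 107 and 86 against 2, 0 and 0. That the lines do not overlap in the 5 runs follows from the rule that chose the genes.

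Cancer-testis antigens went in both directions. Of 8 tested, 5 were higher in PC3-labelled and 2 in DU145-labelled samples, and the median of 6.74 fell to 2.07 when genes with 0 reads in a line were set to their bound. The 5 on the PC3-labelled side were all of the MAGEA family. PRAME, an antigen outside that family, had 0.397, 0.961 and 0.364 CPM against 99.0, 87.0 and 93.9 CPM, a 163-fold difference. TKTL1, a transketolase-like gene, had 199, 268 and 283 reads in DU145-labelled samples and 0 in all PC3-labelled ones, at least 79.8-fold higher. CT45A1, named after its values were seen, was the 1 tested antigen not called, with 363, 371 and 382 reads against 220, 240 and 248. PRAME and TKTL1 were high in the 3 samples in which the MAGEA genes had at most a few reads.

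Whole chromosomes differed by small amounts. Among the nuclear chromosomes, the median log2 fold change of tested genes was lowest on chromosomes 14 (-0.43, 467 genes), 3 (-0.39, 813 genes) and 8 (-0.25, 495 genes). It was highest on chromosomes 16 (0.31, 668 genes), 6 (0.24, 724 genes) and 7 (0.20, 718 genes). These 6 medians kept their sign with RLE factors and with library size alone. The 16 mitochondrial genes had a median of -0.38, and none was called with edgeR or DESeq2, while by edgeR's quasi-likelihood test 15 had an unadjusted and 15 an adjusted p below 0.05 (Benjamini-Hochberg), so these missed only the fold limit. Chromosome copy number was not measured here.

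**Figure D5:**
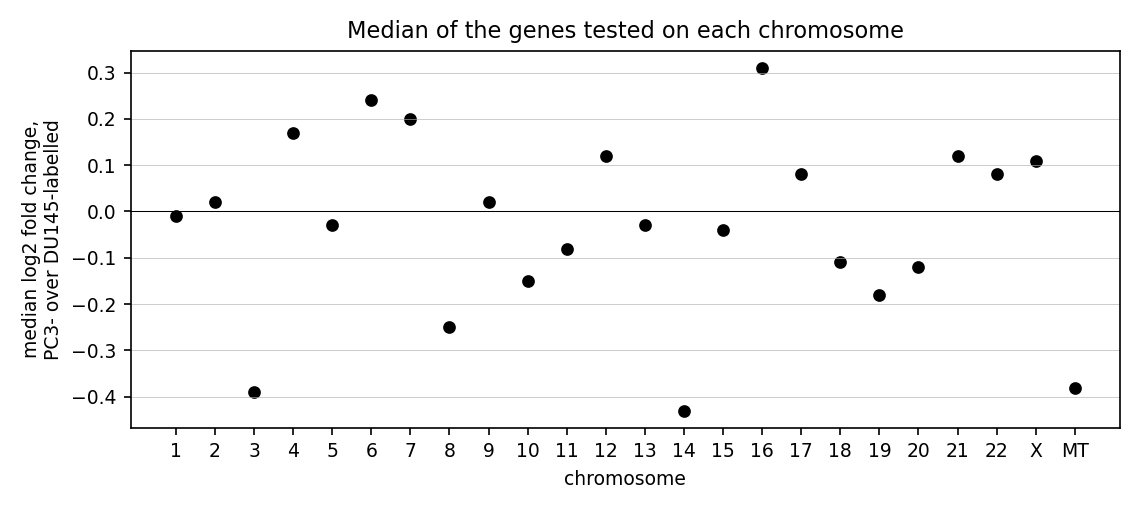
Each point is the median log2 fold change, PC3-labelled over DU145-labelled, of the genes tested on 1 chromosome (16 on MT to 1453 on chromosome 1), with 0 marked by a line. The medians run from -0.43 on chromosome 14 to 0.31 on chromosome 16.

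The line difference was read again in the pentamidine samples, which share no sample with the vehicle comparison. Of 14560 genes tested there, 3023 were called (20.8%). Of the 2768 genes called in vehicle, 2629 could be tested with pentamidine and 2110 were called in the same direction, 76.2% of the vehicle calls and 69.8% of the pentamidine calls. Only 5 were called in opposite directions, all higher in DU145-labelled vehicle samples and higher in PC3-labelled pentamidine samples. They were IL6 and, named after their values were seen, DDIT4, AKNA, HKDC1 and AL590617.2. DDIT4, a stress-induced inhibitor of mTORC1, had 99, 108 and 117 reads in PC3-labelled and 424, 370 and 409 in DU145-labelled vehicle samples. With pentamidine it had 4317, 4235 and 4204 reads against 1778, 1678 and 1621, so the order of the groups was exchanged in all samples. AKNA had 6, 14 and 6 reads against 73, 75 and 52 in vehicle and 250, 245 and 213 against 61, 56 and 53 with pentamidine. HKDC1 had 7, 12 and 9 against 30, 46 and 48, then 112, 100 and 111 against 41, 48 and 46, and AL590617.2 had 10, 10 and 4 against 12, 21 and 17, then 115, 110 and 109 against 40, 49 and 29.

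Genes expressed in only one line held up in part. Of the 109 PC3-labelled genes, 70 met the same rule in the pentamidine samples (64.2%, and 66.7% of the 105 genes that met it there). Of the 313 DU145-labelled genes, 217 did (69.3%, and 72.1% of 301). Among those that did not, 21 of 39 and 36 of 96 fell below 1 CPM in a sample of the expressing line, and 20 of 39 and 66 of 96 had more than 3 reads in a sample of the silent line, where the highest count was 13 and 18. Of the genes in the heat map of reads, CSMD3 and VNN1, named after their values were seen, did not meet the rule with pentamidine. CSMD3 had 0, 5 and 6 reads in the DU145-labelled pentamidine samples, and VNN1 had 0, 0 and 4 in the PC3-labelled ones and 126, 106 and 129 in the DU145-labelled ones, where vehicle samples had 465, 482 and 524. KRT8 kept its direction, with a log2 fold change of -6.73 (SE 0.048) with pentamidine beside -7.09 (SE 0.064) in vehicle. So did AXL (8.07, SE 0.14, beside 8.94, SE 0.14) and MMP1 (-7.99, SE 0.085, beside -8.42, SE 0.091). The estimate of each of these differences was smaller with pentamidine. For KRT8 the change was 0.34 (SE 0.081), with an adjusted p of 0.00279 by edgeR's quasi-likelihood test of the interaction (Benjamini-Hochberg). For MMP1 the change was 0.42 (SE 0.25), with an adjusted p of 0.305 by the same quasi-likelihood test, so a change was not established. AXL was not among the genes compared by this test.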

How the data were processed

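The authors selected mRNA with Oligo(dT) beads, sequenced it as paired ends on an Illumina NovaSeq and aligned the reads with HISAT2 (2.1.0 per the submitters' processing notes, which name GRCh38). The counting program, annotation release and use of strand are not given in the sources used here. The count table, as the authors deposited it, holds raw whole-number counts of reads per gene. The deposited table named for FPKM has columns that sum to 1000000 and was not used. The deposited comparison tables hold the authors' log2 fold changes and p-values of pentamidine against vehicle within each line and were not used.

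Groups came from the sample labels, and no sample was left out. Names listed more than once with the same counts were kept once, and 24 names turned into dates were restored from their Ensembl identifiers, which left 32077 genes. Counts were tested with edgeR 4.0.16 in R 4.3.3 (quasi-likelihood test, TMM normalization, filterByExpr at a minimum count of 10, Benjamini-Hochberg adjustment), with cell line as the only term, on 6 vehicle samples and, separately, on 6 pentamidine samples. All 12 samples entered the test of line by treatment. CPM values printed for samples are TMM-normalised. Library totals were used for the rule on genes expressed in only one line, overlap between groups, counting ratios and the floor of the bounds. Ratios have exact 95% binomial counting intervals, and bounds use 3 reads of the sample with the highest floor. The test was checked on simulated counts. Samples of a group differed by more than counting noise, so none was counted as a duplicate. The mean chi-square of reads per gene between 2 vehicle samples was larger in the PC3-labelled group. It was 5.51 and 6.7 for its pairs with replicate 1 and 3.41 for the other pair. The DU145-labelled vehicle pairs had 2.19, 2.11 and 1.86.

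Named genes were a list of anchor genes, up to 2 called members per direction of each list, the 10 genes per line, pseudogenes left out, with the highest mean CPM over the CPM of 3 reads in the other line among genes expressed in only one line, and the genes of the runs, 121 in all, of which some, with 1 list, are not reported here. The members and lists were chosen with earlier results of these data known. Alternatives were DESeq2 1.42.0, RLE factors, library size alone, other filters and thresholds, all 12 samples in one fit, the replicate number as a block, and each vehicle sample left out. Genes of chromosome Y were not named.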

Additional observations from a re-analysis of the deposited data

Results flagged for a closer look

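The line difference of 40 genes was compared between vehicle and pentamidine samples with edgeR's quasi-likelihood test of the interaction. These were genes chosen by the naming rule with an average of at least 10 reads in every group. Of the 40, 17 had an adjusted p below 0.05, and 6 of the 17 also changed by more than 1 on the log2 scale. Positive values mean that the PC3-labelled samples rose relative to the DU145-labelled ones with pentamidine. The change was 3.52 for IL6 (SE 0.15), whose log2 fold change went from -1.81 in vehicle to 1.73 with pentamidine, and 3.24 for CXCL8 (SE 0.11), from 1.15 to 4.41. It was 1.34 for PLAU (SE 0.079), from -1.40 to -0.03, 1.13 for the growth arrest gene GADD45A (SE 0.098), reaching 2.33 with pentamidine, and 1.11 for NDRG1 (SE 0.26), from -2.77 to -1.64. FOXA1 went the other way with -1.36 (SE 0.49), from 2.68 to 1.35, and its adjusted p of 0.0477 by edgeR's quasi-likelihood test (Benjamini-Hochberg) was the closest to the limit.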

How the results depend on the processing

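The 2768 calls in vehicle samples (1083 higher in PC3-labelled, 1685 higher in DU145-labelled) became 1432 (611 and 821) with at least 10 reads required in every sample, which removes genes silent in a line, 9405 (4541 and 4864) with the adjusted p alone, and 1383 (417 and 966) with an absolute log2 fold change above 2. DESeq2 called 3146 and library size alone 2791 (1214 and 1577). Library size alone also moved log2 fold changes upward, by a median of 0.08, and list medians with them. Antigen presentation went from -0.18 to -0.09, HOX genes from -0.15 to -0.07 and E2F targets from -0.09 to -0.01. Tumour suppressors and cell cycle regulators went from 0.07 to 0.15, and transporters from 0.09 to 0.17. The replicate numbers did not pair the samples (Pearson r across 8321 genes 0.0683, 0.133 and -0.114 for equal numbers), and with the replicate block 2773 genes were called. Leaving out 1 sample gave 2876 to 2990 calls.

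Genes expressed in only one line numbered 42 and 117 with 0 reads required in the silent line, 233 and 555 with at most 10, and 34 and 94 with at least 5 CPM in the expressing line, against 109 and 313. Without 1 sample they were 114 to 119 and 321 to 359. The 5 runs became 34 with 2 neighbours enough and 10 with at most 10 reads in the silent line. Of 114 tested genes chosen by the naming rule, 110 kept their direction and their side of the threshold under every alternative that gave a value, 4, among them CDC25A, EGFR and SYP, changed sides, and none reversed; 78 had no value under at least 1 alternative. The cause of these changes was not tested beyond the settings themselves.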
